A study of Mus musculus with 18 samples.

Results

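The Hox genes encode homeodomain transcription factors that give cells their position along the body axis. In mammals they lie in 4 clusters, HoxA to HoxD, in which the order of the genes along the chromosome follows the order of their expression along the embryo. In blood, Hox genes are used mainly by stem and progenitor cells. In mature cells the clusters are a textbook example of CpG-rich chromatin held silent by Polycomb proteins. KDM2A is a histone demethylase whose zinc finger binds unmethylated CpG dinucleotides and whose catalytic domain removes methyl groups from lysine 36 of histone H3. Its substrate H3K36me2, the dimethylated form of that lysine, is a broad mark of active genes and the surroundings of active genes, and it opposes methylation by Polycomb.

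The members were the protein-coding genes of GENCODE release M21 whose symbols name a gene of the Hoxa, Hoxb, Hoxc or Hoxd series, 39 of 21951 protein-coding genes. The choice rests on gene symbols and positions. HoxA, with 11 genes, spanned chr6:52155590-52260880 (105.3 kb) of GRCm38. HoxB, with 10 genes, spanned chr11:96194316-96368256 (173.9 kb). HoxC, with 9 genes, spanned chr15:102921103-103036852 (115.8 kb), and HoxD, with 9 genes, chr2:74668310-74765142 (96.8 kb). The clusters held 70 CpG islands, which took up 8.09% of their bases against 0.391% of the genome. HoxA was the richest, with 23 islands over 12.3% of its bases, and HoxB the poorest, with 5.43%.

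ChIP-seq had been made from splenic B cells of C57BL/6 mice that carried Mir155 (WT) or lacked it (KO). The study asked how the loss of miR-155 changes where KDM2A binds and where H3K36me2 lies. B cells of both genotypes had been enriched by removing cells that carried CD43, Ter119 or CD4, and grown for 2 days at 1% oxygen and 5% CO2 with anti-CD40 (1 µg/ml), an F(ab')2 fragment against IgM (5 µg/ml) and IL-4 (4 ng/ml). Chromatin fixed with EGS and formaldehyde was precipitated with an antibody to KDM2A or to H3K36me2, with 3 WT and 3 KO libraries per antibody, and in each group replicate 1 was from a male and replicates 2 and 3 from females. The 12 deposited peak lists were used, out of 18 samples that included 6 input libraries, which were not analysed here. The labels do not say whether each library came from its own animal or culture, so p-values measure only the spread between libraries, which may be technical. The cells are a stimulated culture and not germinal centre B cells, and each library pools many cells, so fewer cells with a peak and less signal per cell cannot be told apart.

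KDM2A lists held 23372 to 29105 peaks in WT and 15387 to 21705 in KO. H3K36me2 lists held 85387 to 94136 peaks in WT. KO replicate 1 had 106720 H3K36me2 peaks, while KO replicates 2 and 3 stood apart with 37447 and 45180. Read depth is unknown, and the length of a list sets how much of any region it can cover. The labelled cell type was checked on marker genes, and 7 of 8 B cell marker genes had a KDM2A peak in all 6 libraries, against 0 of 5 T cell, 0 of 4 myeloid and 1 of 3 erythroid markers and 30.7% of all protein-coding genes. H3K36me2 did not set the B cell markers apart: a peak in all 6 libraries was found at 3 of 8 B cell, 2 of 5 T cell, 3 of 4 myeloid and 1 of 3 erythroid markers, against 18.6% of all genes. A peak is not a level of expression. Peak lists cannot check the Mir155 genotype, which was taken from the labels.

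The stretches of CpG island that lay under KDM2A peaks in the most libraries of HoxA, HoxC and HoxD show the kind of sequence involved. Each line gives 150 bp of the forward strand of GRCm38 with every CpG in capitals, the dinucleotide that KDM2A reads when it is unmethylated. The HoxA stretch lies at chr6:52211698-52211847 in an intron of Hoxa3 with 16 CpG, the HoxC stretch at chr15:102990844-102990993 near Hoxc8 with 16, and the HoxD stretch at chr2:74749770-74749919 near Hoxd3 with 7.
HoxA: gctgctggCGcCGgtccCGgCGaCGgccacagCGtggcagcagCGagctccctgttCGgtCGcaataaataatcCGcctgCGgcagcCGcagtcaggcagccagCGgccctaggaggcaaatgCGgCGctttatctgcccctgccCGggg
HoxC: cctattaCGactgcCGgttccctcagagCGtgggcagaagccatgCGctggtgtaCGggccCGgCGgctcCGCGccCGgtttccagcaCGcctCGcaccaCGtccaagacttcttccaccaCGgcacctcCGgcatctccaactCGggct
HoxD: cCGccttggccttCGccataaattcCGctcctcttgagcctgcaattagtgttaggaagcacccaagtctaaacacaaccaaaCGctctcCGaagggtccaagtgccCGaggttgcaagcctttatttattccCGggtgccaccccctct
The HoxA stretch was under a peak in all 3 WT libraries and in no KO library. The HoxC and HoxD stretches were covered in 1 library each, WT replicate 2 and WT replicate 1, and were the longest of several outside UTRs. In HoxC 3 islands were bound in 1 library, all WT, and in HoxD 4 were, of which those at Hoxd13, Hoxd8 and Hoxd4 were bound in a KO library. No CpG island of a Hox cluster was bound in more than 3 of the 6 libraries.

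The islands of the Hox clusters were mostly free of KDM2A peaks, while those of the genome as a whole were often bound. Among the 70 Hox islands, 5, 6 and 5 overlapped a KDM2A peak in WT replicates 1, 2 and 3, and 5, 2 and 3 in KO replicates 1, 2 and 3. As shares these were 7.14%, 8.57% and 7.14% in WT and 7.14%, 2.86% and 4.29% in KO. Of all 16132 islands, 54.0%, 53.5% and 52.6% were bound in WT and 45.7%, 43.5% and 51.3% in KO. Every library therefore placed KDM2A at a far lower share of Hox islands than of islands in general. Over the 6 libraries the Hox share was 6.19% ± 2.15 (SD, n = 6) and the share of all islands 50.1% ± 4.42 (SD, n = 6). The difference was -43.9 percentage points and lay below 0 in 6 of 6 libraries (two-sided exact sign-flip permutation test, p = 0.031, the smallest that 6 libraries allow, and 0.0521 after Benjamini-Hochberg adjustment over 5 such comparisons, just over the threshold of 0.05). Between genotypes the Hox share differed by -2.86 points, KO minus WT, which was within the spread of the libraries (exact permutation test, p = 0.3). The sign turned, to 0.476 points with a −log10 q of at least 2 and to 1.43 points with equal numbers of peaks. In the male pair the number of bound Hox islands differed by 0, and in the females the mean difference was -3 islands.

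The Hox islands were somewhat shorter than islands in general and held fewer CpG. They had a median length of 469 bp against 541.5 bp for all islands, 41 CpG against 55, a GC content of 65.2% against 68.3%, and an observed over expected CpG ratio of 0.899 against 0.886. The share of islands within 2 kb of a protein-coding transcription start site (TSS) was 80% for Hox, 56 of 70, and 80.9% for all. The gap in binding was as wide in 2 narrower classes of islands, which were added after seeing the data. Among islands within 2 kb of a TSS, 3.57% to 10.7% of the Hox islands were bound in a library against 50.6% to 61.5% of all, a mean difference of -50.4 points. Among islands over 500 bp, 0% to 12.1% of 33 Hox islands were bound against 55.8% to 66.0%, a difference of -55.5 points.

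**Figure D1:**
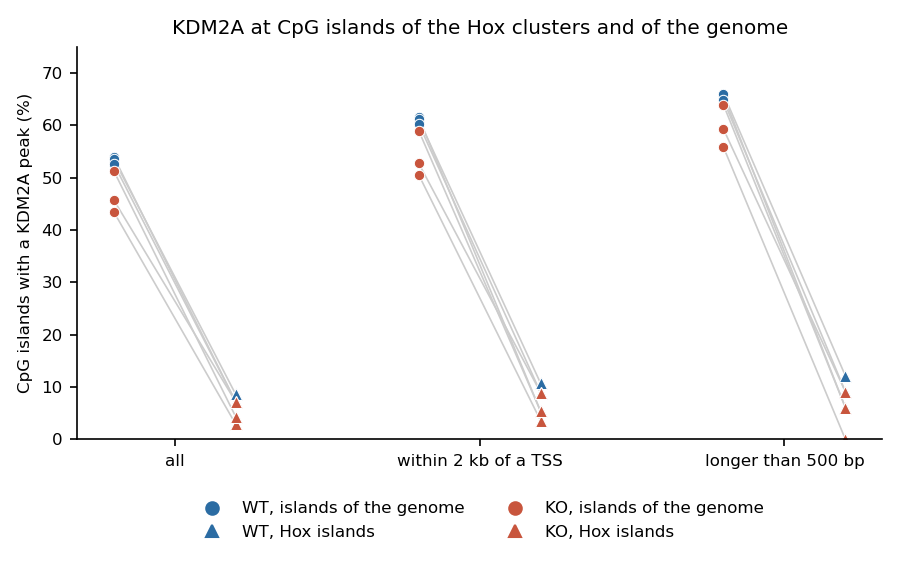
Percent of CpG islands that overlap a KDM2A peak (vertical axis) in each of 6 libraries, for all islands, islands within 2 kb of a protein-coding TSS and islands over 500 bp; circles are islands of the genome, triangles islands of the Hox clusters, and grey lines join values of 1 library. Every triangle lies under 13% and every circle over 43%.

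Few Hox islands were bound in more than 1 library. No KDM2A peak in any library was found at 49 Hox islands (70%), against 30.6% of all islands. A further 18 Hox islands (25.7%) were bound in 1 library, against 8.70% of all islands. Just 2 Hox islands (2.86%) were bound in 3 libraries and none in 4, 5 or 6, whereas 54.4% of all islands were bound in at least 3 and 28.2% in all 6. One of the 2 was the Hoxa3 intron island at chr6:52211662-52211870, with 24 CpG and a peak in the 3 WT libraries. The other was an island of Hoxb4, with 50 CpG and a peak in the 3 KO libraries. At Hoxa7, the island at chr6:52221353-52221915, with 44 CpG, had a peak in 2 libraries, WT replicate 3 and KO replicate 1. These islands were singled out after their values were seen, and with 3 libraries a group no such pattern can reach an exact p under 0.1. H3K36me2 peaks touched 0 of the 70 Hox islands in every library, against 9.50%, 7.36% and 9.29% of all islands in WT and 6.66%, 0.632% and 0.576% in KO. Of all islands, 77.2% had no H3K36me2 peak in any library.

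Promoter sequences of RefSeq (GRCm38.p6) allowed the same question to be asked at promoters. CpG were counted in the 250 bp before each start, and peaks over the whole promoter record. The table matched 22 of the 39 Hox genes, with 24 promoters, which held a median of 12.5 CpG against 6 for all 32851 promoters. Among all promoters, KDM2A recurrence followed CpG number: 2.30% of those with 0 to 4 CpG had a peak in at least 3 of the 6 libraries, 48.4% of those with 10 to 14, and 74.3% of the 5896 with 20 or more. Of the 24 Hox promoters 0 reached 3 libraries, against 28.7% of all promoters, and 20 had no peak in any library, as had 61.0% of all. Of the 8 Hox promoters with 20 or more CpG, 6 had no peak in any library, against 16.1% of all promoters of that class. The Hoxa5 promoter was the richest in CpG among those outside UTRs that belong to a Hox gene with no KDM2A peak in any library. It is shown beside the promoter of Ring1, a Polycomb ubiquitin ligase gene, also outside UTRs. That promoter has a similar number of CpG and had a KDM2A peak in all 6 libraries. Both are from the reverse strand, written along the gene, with each CpG in capitals.
Hoxa5 promoter, chr6:52204588-52204837: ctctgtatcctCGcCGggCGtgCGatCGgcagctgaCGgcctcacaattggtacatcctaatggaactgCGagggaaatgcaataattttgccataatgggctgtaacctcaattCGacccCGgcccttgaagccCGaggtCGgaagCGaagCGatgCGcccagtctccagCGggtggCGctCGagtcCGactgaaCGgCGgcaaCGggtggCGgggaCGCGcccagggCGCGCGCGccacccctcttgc
Ring1 promoter, chr17:34024681-34024930: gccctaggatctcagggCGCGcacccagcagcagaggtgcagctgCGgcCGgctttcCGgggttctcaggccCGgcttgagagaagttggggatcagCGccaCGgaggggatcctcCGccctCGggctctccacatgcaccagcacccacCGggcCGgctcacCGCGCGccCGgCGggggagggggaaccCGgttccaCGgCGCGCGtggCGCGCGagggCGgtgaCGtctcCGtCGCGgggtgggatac
The Hoxa5 promoter holds 28 CpG, a number that 7.61% of all promoters reach, and the Ring1 promoter 30, which 5.94% reach. DNA methylation, which the zinc finger of KDM2A also reads, was not measured here.

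**Figure D2:**
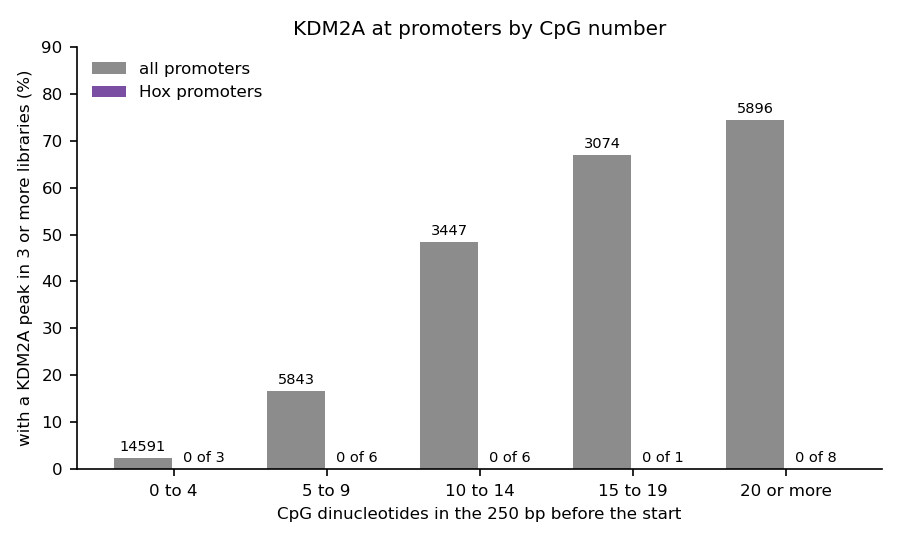
Percent of RefSeq promoters with a KDM2A peak in at least 3 of 6 libraries (vertical axis) by the number of CpG in the 250 bp before the start (horizontal axis); grey bars are all promoters, with their number above. The share rises from 2.30% to 74.3%, and the Hox promoters have 0 in every class, so their bars have no height.

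Across the whole clusters, KDM2A coverage lay on both sides of that of the genome. The 4 clusters together were covered to 1.91%, 1.08% and 0.725% of their bases in WT replicates 1, 2 and 3 and to 0.594%, 0.186% and 0.217% in KO. In the same libraries the genome was covered to 1.11%, 0.770% and 0.876% (WT) and to 0.492%, 0.433% and 0.715% (KO). The clusters were above the genome in 3 libraries, WT replicates 1 and 2 and KO replicate 1, and below it in the others. The mean log2 ratio of cluster to genome coverage was -0.28 ± 1.00 (SD, n = 6), with p = 0.531 in the two-sided exact sign-flip permutation test. With peaks restricted to a −log10 q of at least 2 it was -1.23 (exact p = 0.031), and without KO replicate 3 it was 0.01. In the 100 kb on both sides of each cluster KDM2A covered 0.262% ± 0.132 (SD, n = 6), 0.523 points less than inside (exact p = 0.0938). The clusters were above their flanks in 5 of 6 libraries and below them in KO replicate 3 (-0.208 points), with a mean difference of 0.926 points in WT and 0.119 in KO. It was 0.298 points without WT replicate 1, 0.237 with equal numbers of peaks, 0.0696 with a −log10 q of at least 2 and 0.686 (exact p = 0.031) with flanks of 50 kb.

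KDM2A coverage of the clusters averaged 0.332% ± 0.227 in KO against 1.24% ± 0.608 in WT (SD, n = 3 each). Each KO library lay below each WT library, as it did for coverage of the genome and, with coverage per gene, for 18.6% of the 11727 genes tested. The difference was -0.905 points with p = 0.1 in the two-sided exact permutation test, the smallest that 3 against 3 allow, and 1 after adjustment over the 10 coverage values of both antibodies. It was -1.31 points in the male pair and -0.701 in the females, and -0.570 without WT replicate 1. The KO lists were also shorter, with 17586 ± 3570 peaks against 26436 ± 2887 in WT (SD, n = 3 each), and the part of list length in this difference was not tested. The log2 ratio to genome coverage differed by -1.22 between genotypes (exact p = 0.2), and by -1.80 to -0.807 with 1 library left out. With the same number of strongest peaks taken from every list the difference in coverage was -0.257 points (exact p = 0.3).

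By cluster, HoxA was covered to 1.54%, 1.30% and 3.01% in WT and to 1.74%, 0% and 0.267% in KO. HoxB was covered to 2.53%, 1.64% and 0.225% in WT and to 0.424%, 0.372% and 0.452% in KO. HoxC had 1.89%, 0.949% and 0% in WT and no KDM2A peak in any KO library, and HoxD had 1.203%, 0% and 0% in WT and 0.370%, 0.276% and 0% in KO. The genotypes overlapped in all 4 clusters. KO minus WT was -1.28 points for HoxA (exact permutation p = 0.3), -1.05 for HoxB (p = 0.4), -0.947 for HoxC (p = 0.4) and -0.186 for HoxD (p = 1), and all were 1 after adjustment. These values rested on single libraries: without WT replicate 1 the difference was -0.514 for HoxB, -0.474 for HoxC and 0.215 for HoxD, and without WT replicate 3 it was -0.753 for HoxA, -1.67 for HoxB and -1.42 for HoxC. With the same number of peaks from every list the HoxA difference turned to 0.193 and the HoxD difference to 0.0286.

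Few H3K36me2 peaks were called in the Hox clusters. It covered 0.204%, 0.205% and 0.135% of the 4 clusters in WT and 0.313%, 0% and 0.0819% in KO, while the genome was covered to 4.17%, 5.32% and 5.25% (WT) and to 3.63%, 1.59% and 1.44% (KO). HoxC and HoxD held no H3K36me2 peak in any of the 6 libraries. HoxA held 1 peak, in WT replicate 1, and HoxB held peaks in 5 libraries, and its WT mean of 0.373% ± 0.213 was close to the KO mean of 0.372% ± 0.459 (SD, n = 3 each). The clusters lay below the genome in 6 of 6 libraries, by a mean of -3.41 points (two-sided exact sign-flip permutation test, p = 0.031, the smallest possible, and 0.0521 adjusted over 5 comparisons). It was -0.697 points with a −log10 q of at least 2 and -2.09 with equal numbers of peaks, each lower in 6 of 6 libraries. The difference was used in place of a log ratio because KO replicate 2 had no peak in any cluster. In the 4 libraries other than KO replicates 2 and 3, which had the short lists, the difference over all peaks ran from -5.12 to -3.31 points.

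**Figure D3:**
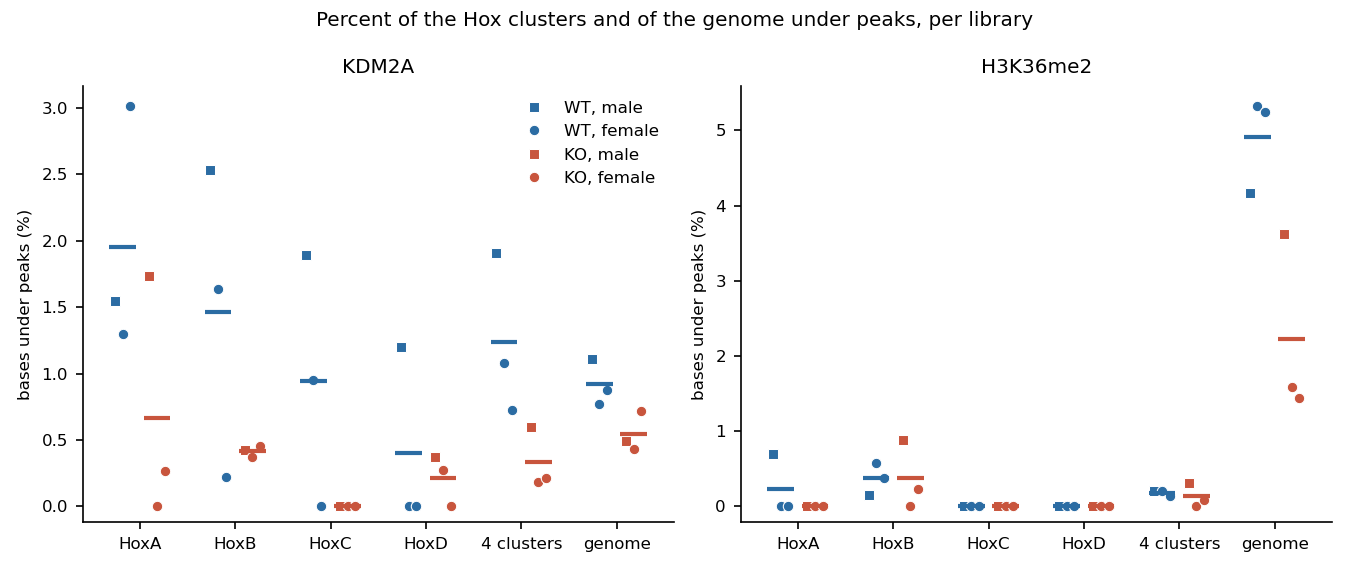
Percent of bases under KDM2A peaks (left) and H3K36me2 peaks (right) in each Hox cluster, the 4 clusters together and the genome; each point is a library, blue WT and red KO, squares male and circles female, and the short lines are means of 3 libraries. KDM2A coverage of the 4 clusters lies above that of the genome in 3 libraries and below it in the others, while H3K36me2 covers at most 0.313% of the 4 clusters and at least 1.44% of the genome.

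H3K36me2 coverage of the clusters did not differ between genotypes beyond the spread of the libraries. KO minus WT was -0.0500 points for the 4 clusters together (exact permutation test, p = 0.6, adjusted p = 1), 0.109 in the male pair and -0.129 in the females. It was -0.141 points without KO replicate 1, and the sign turned without KO replicate 2 (0.0159 points) and after division by genome coverage (0.00991). Coverage of the genome was lower in KO, so the distance between clusters and genome averaged -4.73 ± 0.663 points among WT libraries and -2.09 ± 1.07 among KO libraries (SD, n = 3 each), with an exact p of 0.1 for the difference, the smallest possible. That difference, 2.65 points, was 1.24 with equal numbers of peaks and 0.655 (exact permutation p = 0.2) with a −log10 q of at least 2.

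The sequence next to the clusters was free of called H3K36me2 peaks. In the first 50 kb outside either end of each cluster, 0% of the bases were covered in all 6 libraries. From 50 to 100 kb, coverage was 2.98% ± 1.66 (SD, n = 6), from 1.08% to 5.65%. HoxC had little there, 0.307% ± 0.478, whereas HoxB had 4.65% ± 1.61 and HoxD 4.08% ± 3.93. The neighbouring protein-coding genes included some with the mark and some without. Mtx2, which encodes a mitochondrial outer membrane protein and starts 60.7 kb from HoxD, and Skap1, which encodes a lymphocyte adaptor protein 96.3 kb from HoxB, had H3K36me2 peaks in all 6 libraries. The homeobox genes Evx1 and Evx2, which lie 52.6 kb from HoxA and 8.8 kb from HoxD, had none. Against 100 kb flanks the clusters differed by -1.33 points of H3K36me2 coverage and were lower in 6 of 6 libraries (two-sided exact sign-flip permutation test, p = 0.031, adjusted p = 0.0521). The difference was -0.509 with equal numbers of peaks and -0.129 (exact p = 0.125) with a −log10 q of at least 2. Against 50 kb flanks, which were empty of H3K36me2 peaks, the sign was the opposite, 0.157 points (exact p = 0.0625).

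**Figure D4:**
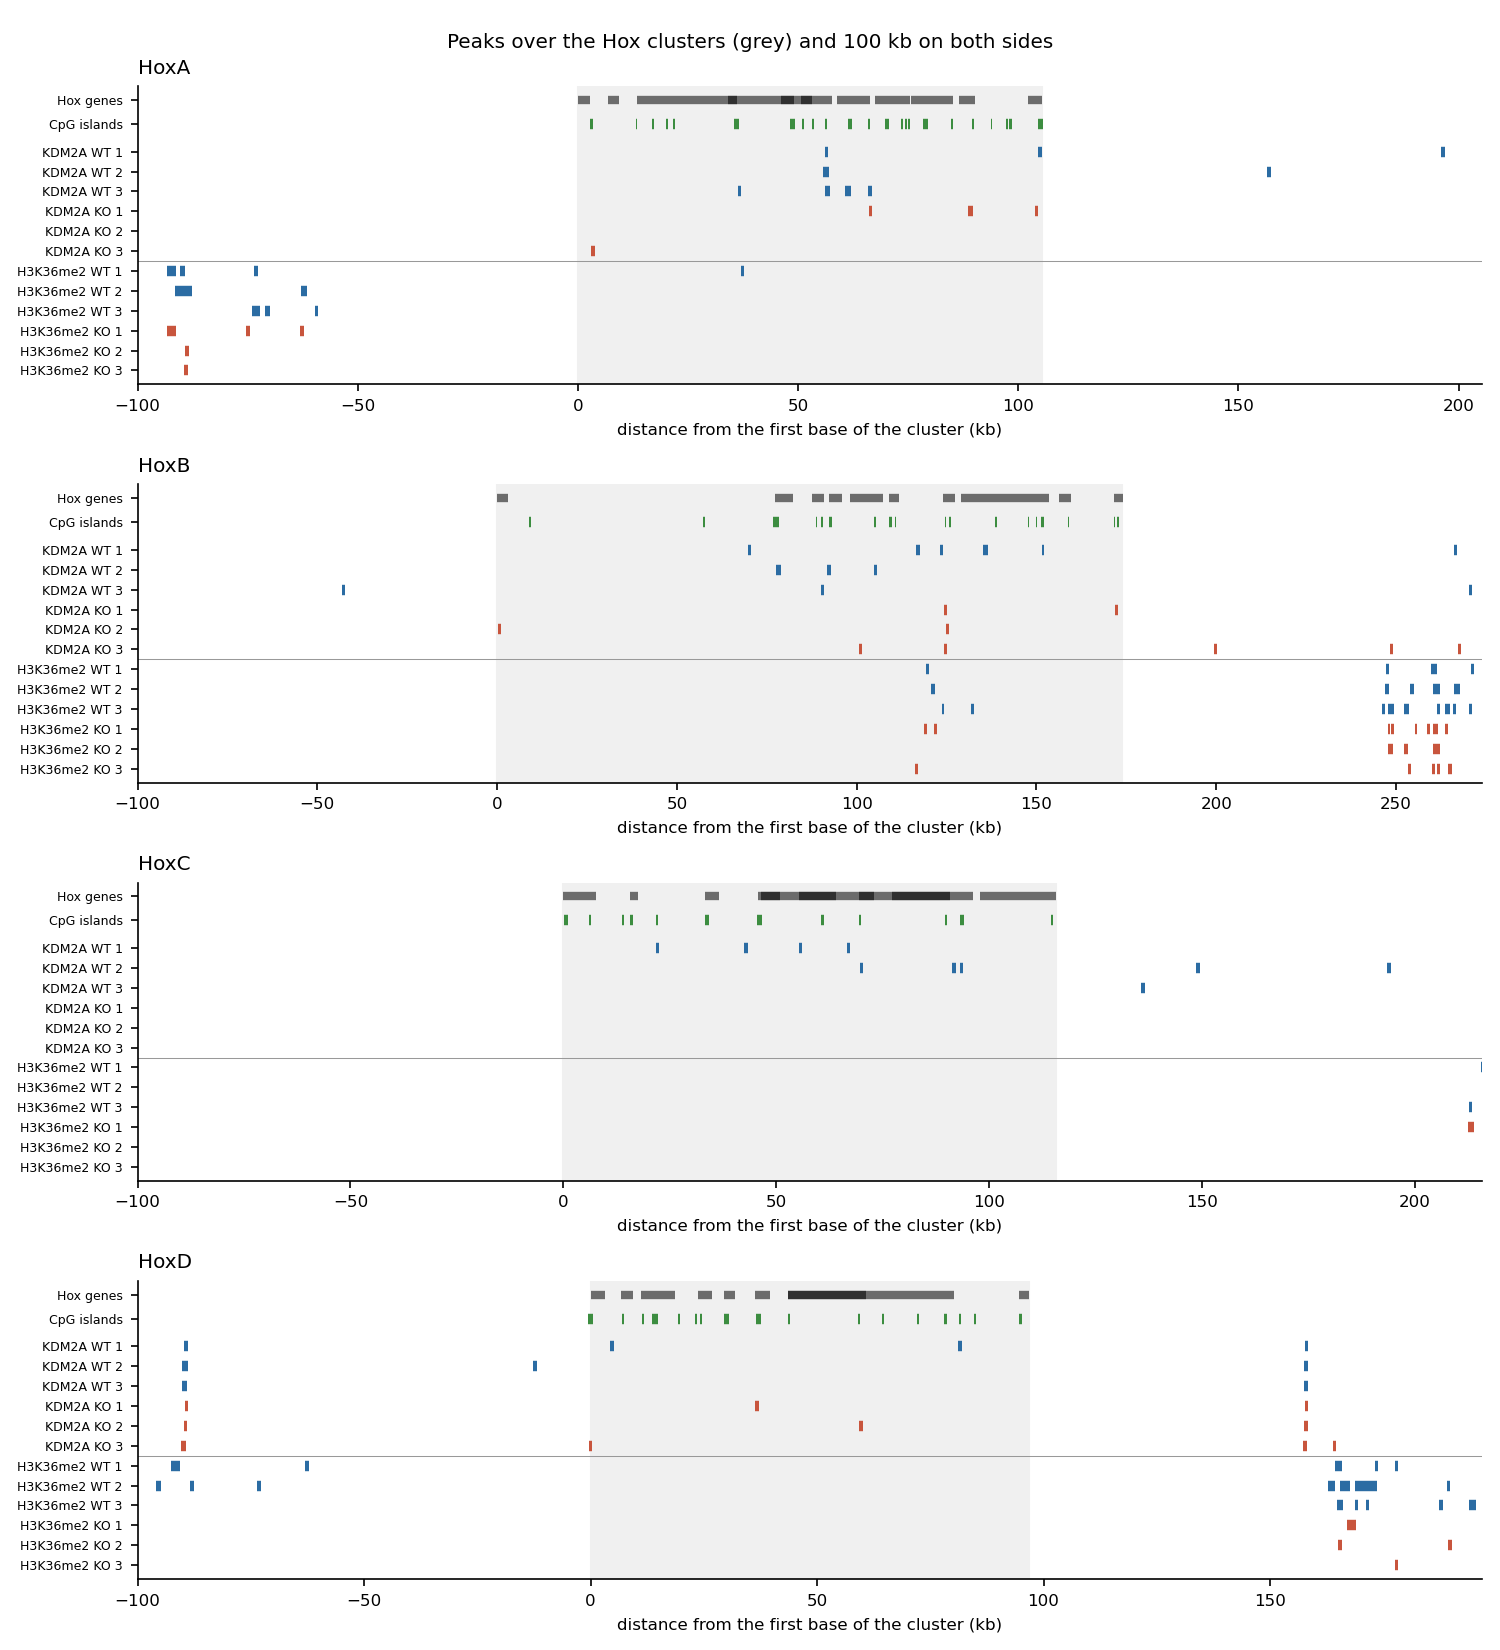
Peaks of each of the 12 libraries over the 4 Hox clusters (grey background) and 100 kb on both sides, by distance in kb from the first base of the cluster; dark bars at the top are Hox genes, green ticks CpG islands, blue WT peaks and red KO peaks. Inside the clusters KDM2A peaks seldom line up between libraries, while in the HoxD flanks they do so in all 6 libraries at 2 places, and H3K36me2 peaks outside the clusters all lie more than 50 kb away, while those inside lie in HoxB and, for 1 peak, in HoxA.

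The peaks inside the clusters were narrow and mostly in the lower part of their lists. The clusters make up 491815 of the 2725521370 bases of the genome, and the numbers of peaks were not tested against that share. KDM2A had 37 peaks there, 25 in WT libraries and 12 in KO libraries, with folds over control background of 2.35 to 3.37. Their median fold was 2.67, against 2.72 for all 132067 KDM2A peaks, which put the median peak at percentile 38.0 of its list. Their median width was 450 bp against 631 bp, and 11 (29.7%) had a −log10 q of at least 2, against 42.2% of all. A CpG island lay under 25 of the 37 (67.6%), and 28 were centred within 2 kb of a Hox TSS. Peak centres fell in coding exons 11 times, in UTRs 3 times, in introns 14 times, in exons of non-coding genes 3 times and between genes 6 times. Merged over libraries the 37 peaks made 33 intervals, of which 30 were seen in 1 library, 2 in 2 libraries and 1 in 3. H3K36me2 had 8 peaks, 5 in WT libraries and 3 in KO libraries, with folds of 2.33 to 2.78, a median percentile of 30.6 and a median width of 459 bp against 823 bp, and 0 of them reached a −log10 q of 2, against 14.4% of all H3K36me2 peaks.

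Few Hox genes had a KDM2A peak in a given library. A peak within the gene or 2 kb on either side was found at 9, 9 and 6 of the 39 genes in WT and at 7, 4 and 4 in KO, or 20.5% ± 4.44 against 12.8% ± 4.44 (SD, n = 3 each). Of all protein-coding genes, 52.5% to 55.4% had one in WT and 44.0% to 50.7% in KO. The genotypes differed by -3 Hox genes, which was within the spread (two-sided exact permutation test, p = 0.2), by -2 in the male pair and -3.5 in the females. The difference was -0.333 genes with equal numbers of peaks, -0.667 without the 2 kb flanks and -1 with a −log10 q of at least 2. A peak in at least 2 of the 3 WT libraries was found at 5 Hox genes (12.8%), against 54.1% of all protein-coding genes, and in at least 2 of the 3 KO libraries at 1 (2.56%), against 46.8%. A peak in at least 3 of the 6 libraries was found at 3 Hox genes (7.69%), against 53.4%. No Hox gene was marked in 5 or 6 libraries, while 30.7% of all genes were marked in all 6. Neighbouring windows overlap, so these genes share peaks and are not independent.

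The whole family can be placed by the number of libraries with a KDM2A peak. None was found at 15 genes, or 38.5% against 31.1% of all genes: Hoxa2, Hoxa5, Hoxa6, Hoxa10, Hoxb2, Hoxb5, Hoxc4, Hoxc10 to Hoxc13, Hoxd1 and Hoxd9 to Hoxd11. A further 13 genes (33.3%) had a peak in 1 library, against 9.10% of all genes, and 8 (20.5%) in 2 libraries, against 6.34%. Hoxa3 and Hoxa7 had one in 3 libraries and Hoxb4 in 4. By position in the cluster, 8 of 12 genes of paralog groups 1 to 4, 8 of 11 of groups 5 to 8 and 8 of 16 of groups 9 to 13 had a peak in any library. By cluster it was 7 of 11 in HoxA, 8 of 10 in HoxB, 4 of 9 in HoxC and 5 of 9 in HoxD. All genes but 31.1% had a peak in any library, and the differences between these groups of Hox genes were not tested.

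**Figure D5:**
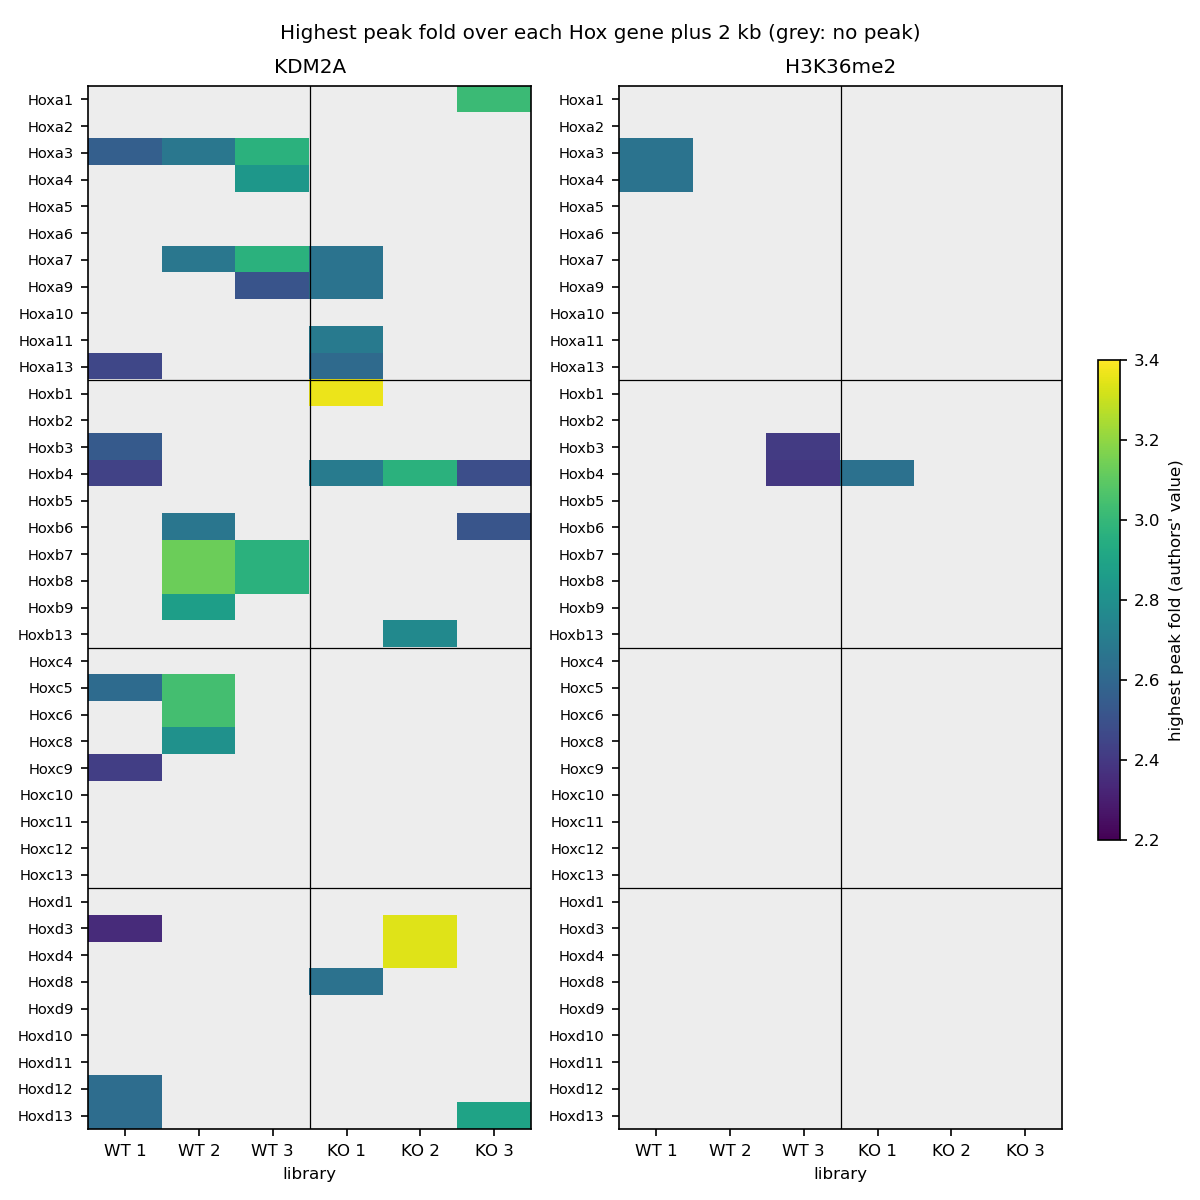
Highest peak fold over each of the 39 Hox genes plus 2 kb in each library, for KDM2A (left) and H3K36me2 (right); grey cells have no peak, and black lines divide clusters and genotypes. Hoxb4 has a KDM2A peak in 4 libraries and no other gene in more than 3, and the H3K36me2 panel has 5 filled cells, in Hoxa3, Hoxa4, Hoxb3 and Hoxb4.

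Among the anterior genes, Hoxa3, which is needed for thymus and parathyroid development, had KDM2A peaks in WT libraries alone. KDM2A covered 1.65%, 2.83% and 3.10% of the gene and its 2 kb flanks in WT replicates 1, 2 and 3, and 0% in the 3 KO libraries. The genotypes did not overlap, which was so, with KO below WT, for 18.6% of the 11727 protein-coding genes tested. The shared peak interval was chr6:52211255-52212864, in an intron of Hoxa3 and of the antisense gene Hoxaas3, with folds of 2.56, 2.68 and 2.96. In the limma fit over all tested genes the difference was -2.53 points (SE 0.475) with an adjusted p of 0.253, which did not pass 0.05. Hoxa3 entered that fit through its 3 WT libraries alone, so the direction, the lack of overlap and the p all follow in part from the filter and are given as a description.

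Hoxb4, known for expanding blood stem cells when overexpressed, had the highest mean KDM2A coverage of the family. The WT libraries had 9.88%, 0% and 0% and the KO libraries 3.89%, 4.11% and 6.04%. The KO libraries were alike in coverage and the WT libraries were not, so the groups overlapped. The KO peaks lay in the coding sequence, with folds of 2.70, 2.97 and 2.49, and the WT peak lay upstream of the gene at chr11:96317450-96318177 with a fold of 2.44. The peaks of KO replicates 1 and 3 overlapped, while that of KO replicate 2 was a separate interval. The limma difference was 1.39 points (SE 2.83, adjusted p = 0.847), and it turned to -0.258 without WT replicate 2 or WT replicate 3. Hoxb1, a gene of hindbrain patterning, had the second largest rise in mean coverage, which rested on 1 library, KO replicate 1, with 6.92% covered by a peak at its start with the highest fold in any cluster, 3.37.

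In the middle of the clusters, Hoxa7 was covered to 0%, 1.15% and 18.0% in WT and to 2.30%, 0% and 0% in KO. Part of this was the end of the Hoxa3 peak, which its window shares. The limma difference was -5.63 points (SE 4.49, adjusted p = 0.593), and -8.83 without WT replicate 1. Hoxb8, which can hold myeloid progenitors in an immature state when overexpressed, was covered to 0%, 15.2% and 5.28% in WT and to 0% in the 3 KO libraries. Its neighbour Hoxb7 shared the same peaks, with 0%, 14.9% and 1.83% in WT and 0% in KO. Both had peaks in WT replicates 2 and 3 alone, with folds of 3.13 and 2.97.

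Of the posterior genes, Hoxb9, a gene of thoracic skeletal patterning, was covered to 14.2% in WT replicate 2 and to 0% elsewhere. Hoxa11, needed for limb and kidney development, was covered to 15.4% in KO replicate 1 and to 0% elsewhere, the largest mean increase in KO of any Hox gene. Hoxa13 and Hoxd13, which pattern the digits and the urogenital tract, each had a peak in 1 WT and 1 KO library: 12.02% of Hoxa13 in WT replicate 1 and 5.29% in KO replicate 1, and 7.43% of Hoxd13 in WT replicate 1 and 3.03% in KO replicate 3. None of these genes had a difference that more than 1 library of a genotype carried.

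No Hox gene passed a test between genotypes. Only Hoxa3, Hoxa7 and Hoxb4 had the KDM2A peak in at least 3 libraries that the coverage fit required, and 0 of the 11727 genes tested (0%) had an adjusted p under 0.05 with limma, although 1390 had an unadjusted p under 0.05. With genes kept from 1 library on, 24 Hox genes were tested and Hoxa3 had the lowest adjusted p among them, 0.444. The fit of peak folds took genes with a peak in all 6 libraries, which no Hox gene had, and it called 0 of 6737 (343 unadjusted). For H3K36me2 coverage 0 of 11060 genes were called (3081 unadjusted), and for H3K36me2 folds 0 of 4077 (215 unadjusted), with no Hox gene among those tested.

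H3K36me2 peaks were found at 2, 0 and 2 Hox genes in WT and at 1, 0 and 0 in KO, a difference of -1 gene (two-sided exact permutation test, p = 0.4). Without WT replicate 2 the difference was -1.67. Of all protein-coding genes, 50.3% to 52.6% had one in WT and 27.4% to 52.3% in KO. The H3K36me2 peaks touched 4 Hox genes in all, and the other 35 (89.7%) had none in any library, against 34.2% of all protein-coding genes. Gene windows differ in length, and these shares were not matched for it. All 4 of the Hox genes belong to paralog groups 1 to 4, which held 12 genes. Hoxa4 was covered to 12.1% and Hoxa3 to 1.52% in WT replicate 1, by the same peak. Hoxb3 was covered in WT replicate 3 alone, with a mean of 0.393% in WT. Hoxb4 was covered in WT replicate 3 and KO replicate 1, with a WT mean of 1.49% ± 2.58 and a KO mean of 2.02% ± 3.50 (SD, n = 3 each). The HoxB peaks, 7 of the 8, all lay between chr11:96310575 and chr11:96326397, from downstream of Hoxb5 to the 5′ part of Hoxb3, with Mir10a between them. A peak in at least 2 of the 3 WT libraries was found at 0 of 39 Hox genes and at 52.3% of all genes, and one in at least 2 of the 3 KO libraries at 0 and at 34.1%. In at least 3 of the 6 libraries it was 0 and 50.4%, and 18.6% of all genes had an H3K36me2 peak in all 6.

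Genes whose products work with Hox factors or act on Hox chromatin were read against all protein-coding genes, of which 30.7% had a KDM2A peak and 18.6% an H3K36me2 peak in all 6 libraries. All 13 upstream regulators examined, among them the Polycomb genes Ezh2, Eed, Suz12, Bmi1, Ring1 and Rnf2 and the histone methyltransferase genes Kmt2a and Dot1l, had a KDM2A peak in all 6 libraries, and 6 of the 13 had an H3K36me2 peak in all 6. Of 9 TALE homeodomain genes, whose proteins bind DNA beside Hox proteins, Pbx2, Pbx3, Pbx4 and Pknox1 had KDM2A in all 6 libraries, while Meis1, a cofactor in blood stem cells, had it in none. Pbx3 and Pbx4, 2 of the 9, had H3K36me2 in all 6. These TALE counts lie near the shares over all genes. The ParaHox genes, the sister cluster of the Hox genes, and Evx1 and Evx2 make up 8 genes. None of these 8 had a KDM2A peak in all 6 libraries, Cdx4 and Pdx1 had none in any library, against 31.1% of all genes, and all 8 lacked an H3K36me2 peak in any library, against 34.2% of all genes.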

How the data were processed

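Per the authors, BWA was the aligner, GRCm38 the genome and MACS2 the caller of broad peaks. Each library has its own deposited list, and replicates were not pooled. The deposited lists give for every peak a fold over control background, which is a ratio, and the significance as −log10 p-value and −log10 q-value. The smallest −log10 q in any list was 1. The lists hold no read counts, so depth is unknown and no counting interval can be given. Versions of the aligner and the peak caller are not given in the sources used here.

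Coordinates were converted to 1-based. A gene was scored over its GENCODE M21 span plus 2 kb on both sides, with an overlap of at least 1 bp. Window length was not matched where Hox genes were set against all genes. A cluster ran from the first to the last base of its Hox genes. CpG islands were computed from GRCm38.p6 (a score of 17 for a CpG and -1 for any other base, longer than 200 bp, at least 50% GC, observed over expected above 0.6). The library was the unit of every test. Coverage per gene and log2 of the highest fold per gene, centred on each library's median, were fitted with limma 3.58.1 (R 4.3.3) over protein-coding genes with a peak in at least 3 of 6 libraries (coverage) or in all 6 (fold), p-values being adjusted by Benjamini-Hochberg and called under 0.05. Other values were compared with two-sided exact permutation tests. The limma step was tested on simulated data. Named genes were the 8 with the highest mean coverage per antibody and the 2 with the largest change in each direction (H3K36me2 covered only 4 Hox genes), and genes of the context lists with a peak in all 6 libraries or in none. Members, lists and tests were chosen with earlier results of these data known. Alternatives changed the q-value minimum, list length, overlap, gene window, flank, scaling and replicates used. The sequence of the HoxB stretch under KDM2A peaks is not reported here.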

Additional observations from a re-analysis of the deposited data

Results flagged for a closer look

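For 3 of the 14 measures compared, the male pair moved one way and every pairing of female libraries the other way, in each case with 1 male library per genotype and 2 female libraries per genotype. Ranges run over the possible WT and KO pairs of females. KDM2A coverage of HoxA was 0.193 points higher in KO than in WT in the male pair, and the mean difference in the females was -2.02 points (-3.01 to -1.03). H3K36me2 coverage of HoxB was 0.730 points higher in KO in the male pair, with a mean of -0.366 in the females (-0.581 to -0.151). H3K36me2 coverage of the 4 clusters was 0.109 points higher in KO in the male pair, with a mean of -0.129 in the females (-0.205 to -0.0535). The male KO list of H3K36me2 held 106720 peaks and the female KO lists 37447 and 45180, so for H3K36me2 the sex of the KO libraries and the length of their lists cannot be told apart. None of these differences between sexes was tested, since 1 male library per genotype leaves no spread to test against. KDM2A coverage of HoxD also had opposite signs, -0.833 in the male pair and a mean of 0.138 in the females, but KO replicate 3 and both female WT libraries were at 0, so it is not among the 3.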

How the results depend on the processing

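Of 256 recomputed values of the main comparisons, 207 kept their direction and their side of the threshold, with permutation p-values taken before adjustment. This count does not measure robustness. No KO minus WT permutation test could pass the threshold, since the smallest p was 0.1, or 0.25 with the replicate number as a block. For H3K36me2 in HoxC and HoxD the difference was 0 in every setting. Limma counts were taken as kept where 0 genes were called again. With a −log10 q of at least 2, the KO minus WT difference turned to 0.0919 points for KDM2A in HoxD and to 0.476 points for bound Hox islands, the KDM2A ratio to the genome became -1.23, H3K36me2 coverage differences (4 clusters, HoxA, HoxB) and the difference in Hox genes with H3K36me2 became 0, and H3K36me2 against flanks weakened to -0.129 points. With equal numbers of peaks, KO minus WT turned to 0.193 (KDM2A, HoxA), 0.0286 (KDM2A, HoxD) and 1.43 points (islands). Divided by genome coverage, it turned to 0.101 (KDM2A, HoxD), 0.00991 (H3K36me2, 4 clusters) and 0.0617 (H3K36me2, HoxB). Flanks of 50 kb gave 0.686 points for KDM2A and 0.157 for H3K36me2, where the flanks were empty. The cause of the other changes was not tested.

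Leaving out 1 library gave ranges of -0.386 to 0.215 points for KDM2A in HoxD, -0.49 to 0.0104 for the KDM2A log2 ratio to the genome, -0.141 to 0.0159 for H3K36me2 in the 4 clusters, -0.349 to 0 in HoxA and -0.257 to 0.186 in HoxB. The island difference ran from -45.0 to -43.3, H3K36me2 against the genome from -3.82 to -3.07 and against flanks from -1.51 to -1.07, all past 0 in the same direction, with an exact permutation p of 0.0625, the smallest that 5 libraries allow. Hoxb4 ran from -0.258 to 4.68. Genes called by limma ran from 0 to 1 for KDM2A folds, 0 to 1 for H3K36me2 folds and 0 to 2309 for H3K36me2 coverage (2309 without KO replicate 1), with 0 Hox genes among them.

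Same-numbered WT and KO libraries deviated together with correlations of -0.0794 to 0.122, and not every library correlated best with its own number, so the numbers were not taken to pair the samples. With the replicate number as a block the exact p of the island difference (-43.9), of H3K36me2 against the genome (-3.41) and against flanks (-1.33) became 0.25, the smallest that 3 pairs allow, and 1 gene was called for H3K36me2 fold.

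Peak lists of unknown depth limit what can be said of low signal: a gene with no peak is a gene below the caller's threshold and is not shown to lack KDM2A or H3K36me2.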

Other observations

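Of the 43 non-coding genes inside the clusters, 24 had no KDM2A peak within 2 kb in any library and 41 had no H3K36me2 peak. Of all protein-coding genes 31.1% had no KDM2A peak and 34.2% no H3K36me2 peak. These sets differ in window length, since many of the 43 are short miRNA or misc_RNA genes. Mir10a, the microRNA gene between Hoxb5 and Hoxb4 at chr11:96317165-96317274, had the most KDM2A libraries, 4, with 1 WT and 3 KO, and the most H3K36me2 libraries, 3, with 2 WT and 1 KO. Its 2 kb window shares the peaks of Hoxb4. Hoxaas3, the antisense gene over Hoxa3, had a KDM2A peak in the 3 WT libraries and in 0 KO libraries, through the same interval as Hoxa3. Hotair in HoxC and Hotairm1 in HoxA, long non-coding RNAs studied for their part in Hox regulation, each had a KDM2A peak in 1 library, a WT library for Hotair and a KO library for Hotairm1. These genes were named after their values were seen.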
